A study of Mus musculus with 6 samples.

Results

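Complexes II to V of the respiratory chain are built from nuclear-encoded subunits whose genes begin with Sdh (complex II), Uqcr together with Cyc1 (complex III), Cox4 to Cox8 (complex IV) or Atp5 (complex V). The 45 genes described here were taken by symbol, as every row of the gene table with values that carried one of these names and had a mean raw count of at least 10 over the 6 libraries, out of 17034 genes with values. They comprise 4 genes of complex II, 9 of complex III, 15 of complex IV and 17 of complex V. The names matched 49 rows, of which Cox7c-ps1, Cox8c and Cox7b2 had no values. Cox6b2, a testis isoform, fell under the count minimum with a mean of 5.83 counts, and Cox4i2, with a mean of 80.2, was the member nearest above it. All 45 members passed the filter on low counts. The mitochondrially encoded subunits of complexes III, IV and V were not analysed here.

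RNA was measured in the gastrocnemius, a mostly fast hindlimb muscle, of 8-week-old male mice, with 3 libraries labelled WT and 3 labelled TRa_mKO. All 6 mice carried Thra fl/fl, the floxed gene of thyroid hormone receptor alpha. The TRa_mKO mice also carried the Myf5-Cre transgene of the strain B6.Cg-Tg(Myf5-cre)1Jme/J, which acts in muscle precursors from embryonic myogenesis onwards, and their WT littermates carried no Cre. No mice with Cre and intact Thra were among the groups, so the presence of Cre and the loss of Thra cannot be told apart. No drug or diet was given. The comparison asked how loss of the receptor in muscle altered the muscle transcriptome, and here it is read for the respiratory subunits.

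Complex II oxidises succinate and passes the electrons to ubiquinone. Complex III hands them on to cytochrome c, and complex IV, cytochrome c oxidase, gives them to oxygen. Complex V, the ATP synthase, uses the resulting proton gradient to make ATP. Thyroid hormone is a classical stimulus of muscle respiration, and slow oxidative fibres hold more of these enzymes than fast glycolytic fibres. Several complex IV subunits exist as a striated-muscle isoform and a ubiquitous isoform encoded by separate genes.

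Library totals lay between 12390535 and 14488508 counts. All libraries carry batch 1 in the labels. Values are CPM, counts scaled to the library total after trimmed-mean normalization, and log2 fold changes are TRa_mKO over WT. Thra was 78.8, 92.8 and 96.9 CPM (WT) and 129, 118 and 100.8 CPM (TRa_mKO), a log2 fold change of 0.37 with an edgeR adjusted p of 0.117. The counts are per gene, so they do not check the deletion of the floxed part. Not all values of Thra were whole, taken here as a sign of reads shared with other features. Muscle markers matched the labelled tissue, with summed fast-fibre markers of 74808 to 99819 CPM in WT and 86010 to 98681 CPM in TRa_mKO. Of these 8 genes edgeR called 1 higher, Myh2 (log2 fold change 0.73, adjusted p = 0.0352), and 0 lower, against 4.17% of all genes tested. Myh2 and Mylpf (0.44, edgeR adjusted p = 0.202) were higher in every TRa_mKO library, 2 of 8 against 13.2% of all genes, and Myh4 was at -0.20 with overlap. The values of Myh2, Mylpf and Myh4, and of the slow-fibre marker Myh7, were also not all whole. Their counts are uncertain to that extent. Summed slow-fibre markers were 1106 to 2517 CPM in WT and 4584 to 6653 CPM in TRa_mKO. Of these, 8 of 8 genes were higher in every TRa_mKO library, against 13.2% of all genes tested. EdgeR called 4 of 8 higher, against 2.52% of all genes. DESeq2 called 7 of 8 and limma-voom 8 of 8, against 5.82% and 3.87% of all genes in either direction. Blood markers were highest in WT replicate 1 (1763 CPM) and TRa_mKO replicate 3 (1621 CPM) and lay between 458 and 917 CPM in the other 4 libraries. Summed endothelial markers were 831 to 1035 CPM in WT and 602 to 838 CPM in TRa_mKO, with 5 of 5 genes below 0 and 0 called by edgeR. At an unadjusted edgeR p under 0.05 there were 4 of 5, against 17.9% of all genes tested. DESeq2 called 1 of 5, against 5.82%. No listed marker was at 0 in all libraries. In whole muscle, fewer cells of a type and less RNA per cell cannot be told apart. The edgeR p-values set the difference between genotypes against the spread among these 6 libraries within a genotype.

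None of the 45 subunit genes passed the main test between genotypes, and the largest difference was in Cox6a2, the muscle isoform of a complex IV subunit. EdgeR's quasi-likelihood test called 0 of 45, against 4.17% of the 13118 genes tested (2.52% higher and 1.65% lower). Two-sided unadjusted p-values were under 0.05 for 2 of 45, Cox6a2 and Sdhb, against 17.9% of all genes tested. Both were higher, against 10.2% of all genes with such a p upward. DESeq2 called 1 of 45, Cox6a2, against 5.82%, and limma-voom called 0 of 45 against 3.87%. The same pair of genes was higher in every TRa_mKO library than in every WT library, a pattern seen in 13.2% of all genes. No member was lower in every TRa_mKO library, against 10.1% of all genes.

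The log2 fold changes of the members ran from -0.27 (Cox7a1) to 0.45 (Cox6a2), with 20 above 0 and 25 below. Their median was -0.02, beside 0.00 over all genes tested. The medians by complex were 0.04 for complex II, 0.01 for complex III, -0.02 for complex IV and -0.05 for complex V. For 42 of 45 members the 95% confidence interval of the fold change lay within 1.5-fold either way, as it did for 66.1% of all genes. The other 3 were Cox6a2, Cox7a1 and Sdhb. The plot of fold changes by complex shows these intervals gene by gene.

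**Figure D1:**
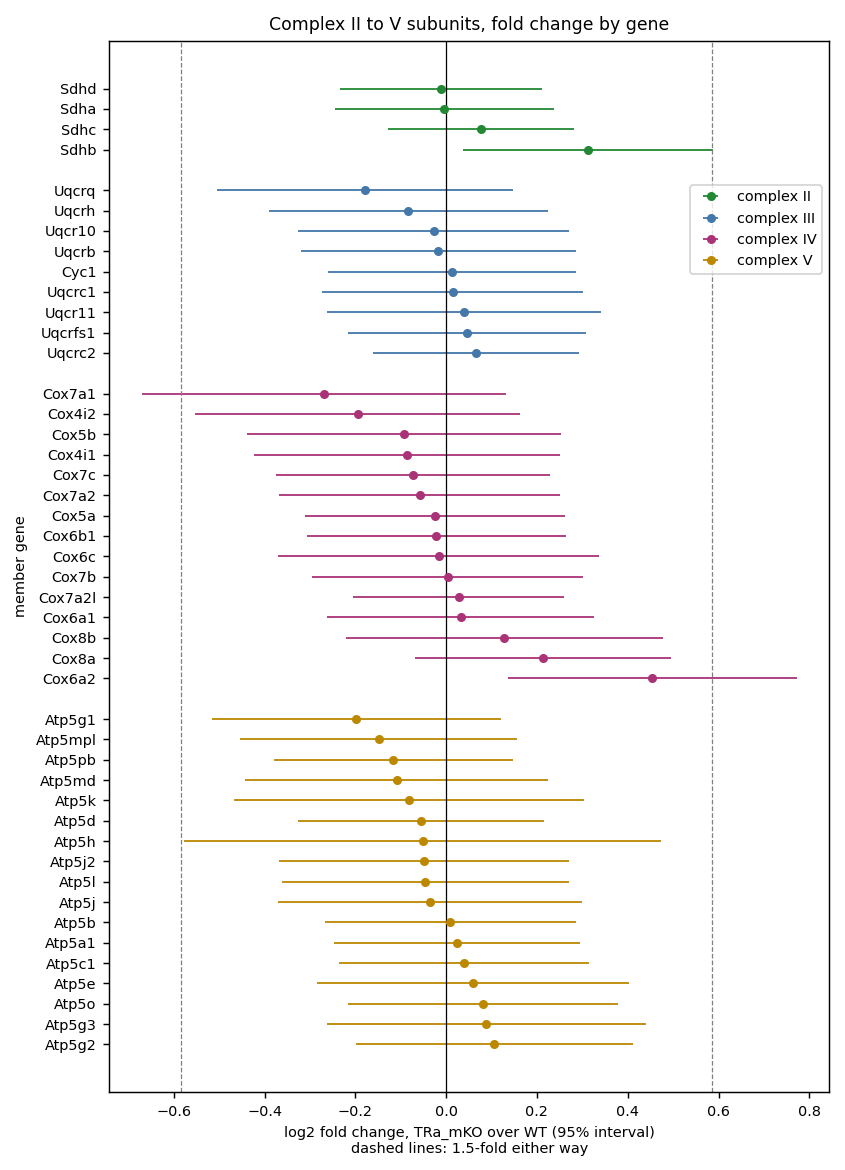
Log2 fold change (TRa_mKO over WT) of each of the 45 subunit genes, grouped by complex, with points at the edgeR estimate and bars for its 95% confidence interval. Dashed lines stand at 1.5-fold either way. Cox6a2 (0.45) and Sdhb (0.31) lie farthest above 0 with intervals that exclude it, and Cox7a1 (-0.27) lies farthest below.

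The subunits took 2.59%, 2.26% and 2.00% of all counts in the WT libraries and 2.15%, 2.16% and 2.36% in the TRa_mKO libraries. The ranges of the genotypes overlapped, and the WT range held both the highest and the lowest share. Summed over all members the level was 22478 ± 3249 CPM in WT and 22636 ± 950 CPM in TRa_mKO (SD, n = 3 libraries each), a ratio of 1.01. By complex the ratio of the means was 1.06 for complex II, 0.996 for complex III, 1.02 for complex IV and 0.996 for complex V. These sums carry no test, since the genes were chosen as a list.

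Complex II is the smallest of the chain, and all of its subunits are nuclear. Sdha, the flavoprotein that holds the succinate site, was 725, 655 and 696 CPM (WT) and 754, 658 and 659 CPM (TRa_mKO). Its log2 fold change was 0.00 (SE 0.11, 95% interval -0.25 to 0.24), and the libraries of the genotypes overlapped. Sdhc and Sdhd are the membrane anchors that bind ubiquinone. Sdhc was 283, 269 and 256 CPM (WT) and 292, 281 and 280.2 CPM (TRa_mKO), a log2 fold change of 0.08, and Sdhd was 267, 244 and 246 CPM (WT) and 268, 228 and 255 CPM (TRa_mKO), a log2 fold change of -0.01. Both sets of libraries overlapped as well.

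Sdhb, the iron-sulphur subunit that carries electrons from the flavoprotein to ubiquinone, was 409, 362 and 306 CPM (WT) and 432, 428 and 478 CPM (TRa_mKO). All TRa_mKO libraries were above all WT libraries, by a small margin between the lowest TRa_mKO and the highest WT library. The means were 359 ± 52.0 against 446 ± 27.7 CPM, and the log2 fold change of 0.31 (SE 0.12, 95% interval 0.04 to 0.59) did not pass the edgeR test (unadjusted p = 0.0299, adjusted p = 0.212). Expressed as a percentage of the summed CPM of Sdha, Sdhc and Sdhd, Sdhb stood at 32.1%, 30.9% and 25.5% in WT and 32.9%, 36.7% and 40.0% in TRa_mKO. This share was looked at after the values were seen, and Sdha, Sdhc and Sdhd overlapped between genotypes on the same scale. Per kilobase of transcript, Sdhb had the highest level of the complex in WT (314 ± 45.5 CPM per kb) and Sdhc the lowest (85.0 ± 4.32 CPM per kb).

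The Sdhb promoter is shown because Sdhb is 1 of the 2 members apart between genotypes and the one of them with a sequence in the RefSeq promoter table. The 250 bases before its start lie at chr4:140961021-140961270 on the plus strand (RefSeq, GRCm38.p6). The table covered 34 of the 45 members. Capitals mark AGGTCA, the hexamer bound by thyroid hormone receptors and many other nuclear receptors, and GCGCATGC, the core of the site of the respiratory-gene factor NRF1, here read on the opposite strand.
Sdhb: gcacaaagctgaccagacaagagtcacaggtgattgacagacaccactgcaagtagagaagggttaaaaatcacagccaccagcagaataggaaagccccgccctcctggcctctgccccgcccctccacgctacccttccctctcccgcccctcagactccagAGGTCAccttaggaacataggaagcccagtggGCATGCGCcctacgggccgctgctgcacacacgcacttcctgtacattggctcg
The hexamer begins 86 bases and the NRF1 core 54 bases before the start. A match of letters is a description of this window and not a measured site.

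Complex III held no member near the threshold, and its 9 genes lay between log2 fold changes of -0.18 and 0.07. Uqcrfs1, the Rieske iron-sulphur protein that takes electrons from ubiquinol, was 662, 598 and 513 CPM (WT) and 587, 622 and 621 CPM (TRa_mKO). Cyc1, cytochrome c1, which passes them to cytochrome c, was 448, 399 and 328 CPM (WT) and 392, 394 and 399 CPM (TRa_mKO). For both genes the TRa_mKO libraries lay inside the WT range, with log2 fold changes of 0.04 (SE 0.12) and 0.01 (SE 0.12).

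The lowest of the complex, Uqcrq, a small subunit beside cytochrome b, was 387, 353 and 259.9 CPM (WT) and 273, 291 and 320.5 CPM (TRa_mKO). The TRa_mKO values lay inside the wide WT range, and the difference did not pass (log2 fold change -0.18, SE 0.15, edgeR adjusted p = 0.578). Uqcrc2, a core protein and the highest of the complex in fold change, was 515, 494 and 451 CPM (WT) and 532, 495 and 501 CPM (TRa_mKO). It was the only member with values that were not whole, taken here as a sign of reads shared with other features. Its counts are uncertain to that extent, and whole values in the other members do not show that they had no shared reads. The other genes of the complex are Uqcrc1 (0.01), the partner core protein, the ubiquinone-binding protein Uqcrb (-0.02), the hinge protein Uqcrh (-0.08) and the small subunits Uqcr10 (-0.03) and Uqcr11 (0.04), with log2 fold changes in brackets. In each of them WT replicate 3 was the lowest library. Per kilobase the WT levels ran from 219 ± 43.3 CPM per kb in Uqcrq to 760.1 ± 135 CPM per kb in Uqcrh.

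In complex IV the tissue isoforms spanned log2 fold changes of -0.27 to 0.45, both ends of the whole set. Cox6a2, the heart and skeletal muscle form of subunit VIa, was 812, 779 and 567 CPM (WT) and 983, 953 and 1019.9 CPM (TRa_mKO). Every TRa_mKO library was above every WT library, and the gap was widest from WT replicate 3. The means were 719 ± 133 against 985 ± 33.7 CPM (SD, n = 3 libraries each). The log2 fold change of 0.45 (SE 0.14, 95% interval 0.14 to 0.77) did not pass edgeR (unadjusted p = 0.00974, adjusted p = 0.118) or limma-voom (adjusted p = 0.123) and passed DESeq2 (adjusted p = 0.0225). With a correction for GC content and transcript length the edgeR adjusted p was 0.0473, and Cox6a2 was the 1 member of 45 called, against 4.46% of the 12859 genes in that fit. Leaving out each library in turn gave log2 fold changes of 0.31 to 0.54 and adjusted p-values of 0.117 to 0.281, with the smallest fold change in the fit without WT replicate 3.

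Cox6a1, the ubiquitous form of the same subunit, was 38.1, 31.4 and 29.8 CPM (WT) and 29.7, 31.6 and 40.0 CPM (TRa_mKO). The genotypes overlapped (log2 fold change 0.03, SE 0.13). Within a library the ratio of Cox6a2 to Cox6a1 needs no scaling between libraries, and it was 21.3, 24.8 and 19.0 in WT and 33.1, 30.1 and 25.5 in TRa_mKO. All TRa_mKO ratios were above all WT ratios (21.7 ± 2.94 against 29.6 ± 3.81, SD), with a two-sided exact permutation p of 0.1, the smallest that 3 against 3 allows, and 0.2 after adjustment over the 4 ratios computed.

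In subunit VIIa the ratio of the forms lay lower in TRa_mKO. Cox7a1, the heart and muscle form, was 236, 221 and 140.4 CPM (WT) and 165, 155 and 176 CPM (TRa_mKO). The WT libraries surrounded the TRa_mKO libraries, and the log2 fold change of -0.27 (SE 0.18, 95% interval -0.67 to 0.13) did not pass (edgeR adjusted p = 0.477). Cox7a2, the ubiquitous form, was 238, 216 and 161 CPM (WT) and 192, 188 and 209.7 CPM (TRa_mKO) (log2 fold change -0.06), again with TRa_mKO inside the WT range. The ratio of Cox7a1 to Cox7a2 was 0.992, 1.02 and 0.874 in WT and 0.861, 0.822 and 0.839 in TRa_mKO. All TRa_mKO ratios were below all WT ratios, by a narrow margin at the nearest pair, with a log2 difference of -0.19 and a two-sided exact permutation p of 0.1 (0.2 adjusted over the 4 ratios). Cox7a2l, a relative that joins complexes III and IV into supercomplexes, was 159.6, 140.2 and 130.5 CPM (WT) and 144, 137 and 157 CPM (TRa_mKO) and did not part the genotypes.

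Subunit VIII showed no separation in its ratio. Cox8b, the heart and muscle form, was 237, 222 and 152 CPM (WT) and 206, 220.5 and 240.0 CPM (TRa_mKO) (log2 fold change 0.13, SE 0.16, edgeR adjusted p = 0.733). Cox8a, the ubiquitous form, was 48.3, 39.0 and 35.3 CPM (WT) and 41.4, 49.8 and 50.8 CPM (TRa_mKO) (log2 fold change 0.21, SE 0.13, edgeR adjusted p = 0.419). Both overlapped between genotypes, and the log2 ratio of Cox8b to Cox8a differed by -0.07, with a two-sided exact permutation p of 0.7.

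The remaining pair is that of subunit IV, in which Cox4i2 is the oxygen-sensitive lung form rather than a muscle form. Cox4i1, the common form, was 1022, 935 and 684 CPM (WT) and 808, 786 and 895 CPM (TRa_mKO), and its TRa_mKO libraries lay inside the WT range (log2 fold change -0.09, SE 0.15). Cox4i2 was 7.26, 5.81 and 5.74 CPM (WT) and 5.27, 5.25 and 5.88 CPM (TRa_mKO) (log2 fold change -0.19, SE 0.16). The log2 ratio of Cox4i2 to Cox4i1 differed by -0.12, with overlap and a two-sided exact permutation p of 0.4. Cox6b1, the common form of subunit VIb, was 456, 438 and 335 CPM (WT) and 393, 395 and 422 CPM (TRa_mKO), also with overlap (log2 fold change -0.02).

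**Figure D2:**
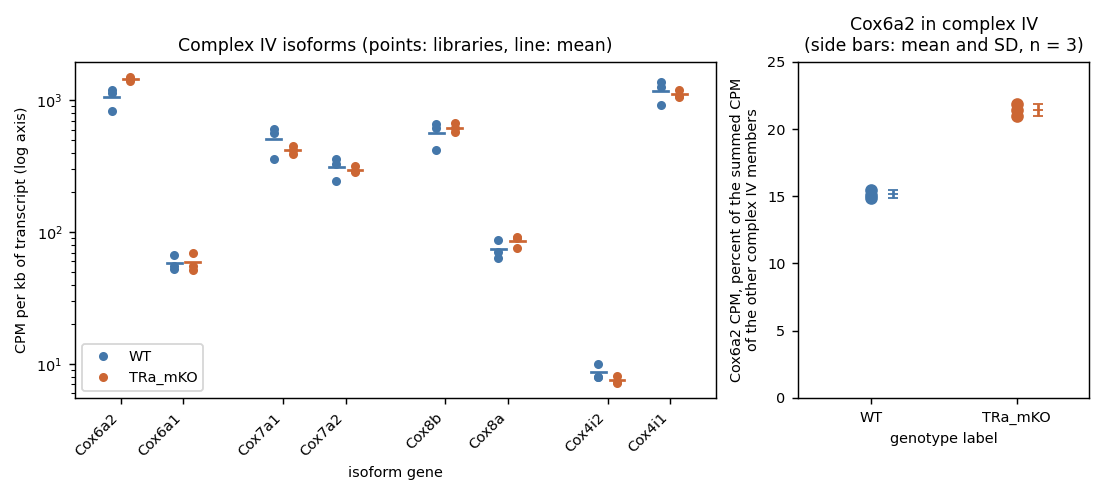
Left, level of each complex IV isoform in CPM per kb of transcript (log axis), with points for the 3 WT and 3 TRa_mKO libraries and lines for the group means; right, Cox6a2 CPM as a percentage of the summed CPM of the other complex IV members, with points for libraries and side bars for the mean and SD. Cox6a2 is above its WT points in every TRa_mKO library, and its percentage is 14.9% to 15.5% in WT and 21.0% to 21.9% in TRa_mKO.

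The plot of isoform levels sets the pairs side by side on a scale per length. On it, Cox6a2 made up 94.1% to 96.5% of the Cox6a pair in every library, Cox8b 86.8% to 89.7% of the Cox8 pair, Cox7a1 57.9% to 63.2% of the Cox7a pair, and Cox4i2 0.632% to 0.853% of the Cox4 pair. The muscle form thus had the higher level per kilobase in all 3 pairs that have one, in every library of either genotype. Many genes of small respiratory subunits have processed pseudogenes, and how reads shared with them were counted is not given in the sources used here.

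Cox6a2 was then set against the other subunits of its complex, as drawn on the right of the isoform plot. As a percentage of the summed CPM of the other 14 complex IV genes it was 14.9%, 15.5% and 15.1% in WT and 21.9%, 21.4% and 21.0% in TRa_mKO (15.2 ± 0.293% against 21.4 ± 0.452%, SD). On this scale the libraries of a genotype lay close together, WT replicate 3 included. The scale was chosen after the values were seen, so the separation is a description with no test. With the same denominator, Cox8b was also higher in every TRa_mKO library (4.05% to 4.41% in WT, 4.58% to 4.96% in TRa_mKO). Cox7a1 was lower in every one (3.74% to 4.39% against 3.48% to 3.68%), and the other 12 genes overlapped. On CPM, a different scale, 23.2% of all genes tested were apart between the genotypes in either direction. The separation of Cox8b and Cox7a1 on the share is thus no result on its own. Without Cox6a2, complex IV summed to 5447, 5030 and 3750 CPM (WT) and 4496, 4445 and 4868 CPM (TRa_mKO), which overlap.

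In WT replicates 1, 2 and 3 the summed slow-fibre markers were 2517, 1106 and 1126 CPM. Cox6a2 was 812, 779 and 567 CPM in the same libraries, and its share stayed in a narrow range (14.9%, 15.5% and 15.1%). Between genotypes the markers, the Cox6a2 CPM and the share were all higher in all TRa_mKO libraries. The part of fibre type in the Cox6a2 values was not tested.

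Per kilobase, the complex IV members in WT ran from 8.63 ± 1.18 CPM per kb in Cox4i2 to 1182 ± 236 CPM per kb in Cox4i1. Cox6a2 stood at 1057 ± 196 CPM per kb in WT, below Cox4i1, Cox6c and Cox7c by less than the spread of the libraries. In TRa_mKO it was the highest of the complex at 1449 ± 49.5 CPM per kb, followed by Cox6c at 1143 ± 78.9 and Cox4i1 at 1114 ± 77.0 CPM per kb. The log2 fold changes of the other subunits were -0.02 for Cox5a, -0.09 for Cox5b, -0.02 for Cox6c, 0.00 for Cox7b and -0.07 for Cox7c, each with overlap between the genotypes.

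The promoters of Cox7a1 and Cox7a2 are printed as a muscle form and its own ubiquitous partner, and that of Cox6a1 as the partner of Cox6a2. The windows lie at chr7:30183921-30184170 (plus strand) for Cox7a1, chr9:79759854-79760103 (minus strand) for Cox7a2 and chr5:115348959-115349208 (minus strand) for Cox6a1, each as the 250 bases before the start, 5′ to 3′ along the gene (RefSeq, GRCm38.p6). Capitals mark GCGCATGC and CCGGAAG, the core bound by ETS factors such as NRF2 (GABP), on either strand. Cox6a2 had no entry in the table.
Cox7a1: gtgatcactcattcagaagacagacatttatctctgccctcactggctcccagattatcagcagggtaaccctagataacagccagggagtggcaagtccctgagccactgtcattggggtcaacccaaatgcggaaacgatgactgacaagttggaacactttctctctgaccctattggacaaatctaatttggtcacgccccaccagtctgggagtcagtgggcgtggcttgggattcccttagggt
Cox7a2: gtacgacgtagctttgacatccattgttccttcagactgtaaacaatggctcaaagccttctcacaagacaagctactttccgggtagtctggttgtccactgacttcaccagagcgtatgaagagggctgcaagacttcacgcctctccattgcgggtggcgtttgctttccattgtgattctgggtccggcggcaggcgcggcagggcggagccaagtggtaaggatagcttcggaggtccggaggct
Cox6a1: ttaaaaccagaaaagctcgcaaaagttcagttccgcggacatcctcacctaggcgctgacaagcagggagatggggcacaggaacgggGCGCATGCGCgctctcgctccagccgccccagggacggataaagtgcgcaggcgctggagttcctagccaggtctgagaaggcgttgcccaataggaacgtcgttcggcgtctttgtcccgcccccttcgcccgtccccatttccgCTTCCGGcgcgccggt
The Cox6a1 window holds the NRF1 core on both strands, at overlapping positions that begin 162 and 160 bases before the start, and 1 ETS core 16 bases before it. The Cox7a1 and Cox7a2 windows hold none of the motifs searched, nor do those of Cox8b and Cox8a, which says only that these letters are not in these windows. With no match on either side, the 2 pairs with both windows allow no comparison of muscle and ubiquitous forms by these motifs.

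Complex V makes up the larger share of the summed level. Atp5b, the catalytic beta subunit and the most abundant member per kilobase (1474 ± 132 CPM per kb in WT), was 3074, 2834 and 2567 CPM (WT) and 2901, 2640.1 and 2987 CPM (TRa_mKO). Atp5a1, the alpha subunit that alternates with beta in the catalytic head, was 2311, 2158 and 1947 CPM (WT) and 2340.5, 2054 and 2126 CPM (TRa_mKO). Atp5c1, the gamma subunit of the rotating stalk, was 885, 899 and 720.1 CPM (WT) and 911, 790.4 and 872 CPM (TRa_mKO). In all of them the genotypes overlapped, with log2 fold changes of 0.01 (SE 0.12), 0.02 (SE 0.12) and 0.04 (SE 0.12) in that order.

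Subunit c forms the membrane ring that turns as protons pass, and Atp5g1, Atp5g2 and Atp5g3 encode the same mature protein with different import signals. Atp5g1 was 557, 495 and 383 CPM (WT) and 426, 378 and 447 CPM (TRa_mKO), the lowest fold change of the complex at -0.20 (SE 0.14, edgeR adjusted p = 0.516). Atp5g2 was 161, 158 and 124 CPM (WT) and 184, 137 and 155 CPM (TRa_mKO), the highest at 0.11 (SE 0.14, edgeR adjusted p = 0.75). Atp5g3 was 937, 792 and 588 CPM (WT) and 810.2, 804 and 848 CPM (TRa_mKO), a log2 fold change of 0.09 (SE 0.16). None of the 3 separated the genotypes.

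The other 11 genes of complex V lay between log2 fold changes of -0.15 and 0.08. Those of the rotating stalk were Atp5d (-0.06) and Atp5e (0.06). The peripheral stalk, which holds the catalytic head still, was represented by Atp5o (0.08), Atp5pb (-0.12), Atp5h (-0.05) and Atp5j (-0.04). Subunits of the membrane part were Atp5j2 (-0.05), Atp5l (-0.05), Atp5k (-0.08), Atp5md (-0.11) and Atp5mpl (-0.15). The widest interval of the complex was that of Atp5h, at -0.58 to 0.47, with values of 386, 371 and 218 CPM (WT) and 322, 251 and 367 CPM (TRa_mKO). WT replicate 3 and, less so, TRa_mKO replicate 2 were low. All 17 intervals of the complex lay within 1.5-fold either way.

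The subunits shared an order of libraries that did not follow genotype. WT replicate 3 was the lowest of the 6 libraries in 39 of 45 members (86.7%), whereas it was lowest in 16.9% of all genes tested. WT replicate 1 was the highest in 29 of 45 (64.4%), against 15.6% of all genes. The 6 members not lowest in WT replicate 3 were Sdha, Sdhd, Cox4i2, Cox6a1, Atp5g1 and Atp5pb. The median log2 ratio of WT replicate 3 to WT replicate 1 was -0.48 over the members and 0.00 over all genes.

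The complexes shared this order to different degrees. Complex II summed to 1685, 1530 and 1503 CPM (WT) and 1745, 1594 and 1672 CPM (TRa_mKO). Complex IV summed to 6259, 5809 and 4316 CPM (WT) and 5478, 5398 and 5888 CPM (TRa_mKO). The spread was narrow in both genotypes for complex II (1573 ± 98.0 and 1670.4 ± 75.6 CPM, SD). For complex IV the highest WT library was 1.45 times the lowest, while in TRa_mKO the same ratio was 1.09. Complex III summed to 4131, 3865 and 3085 CPM (WT) and 3659, 3577 and 3801 CPM (TRa_mKO). Complex V summed to 13044, 12261 and 9945 CPM (WT) and 11955, 11032 and 12107 CPM (TRa_mKO). In both, WT replicate 3 was the lowest of the 6 and WT replicate 1 the highest, so that the TRa_mKO values lay inside the WT range.

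**Figure D3:**
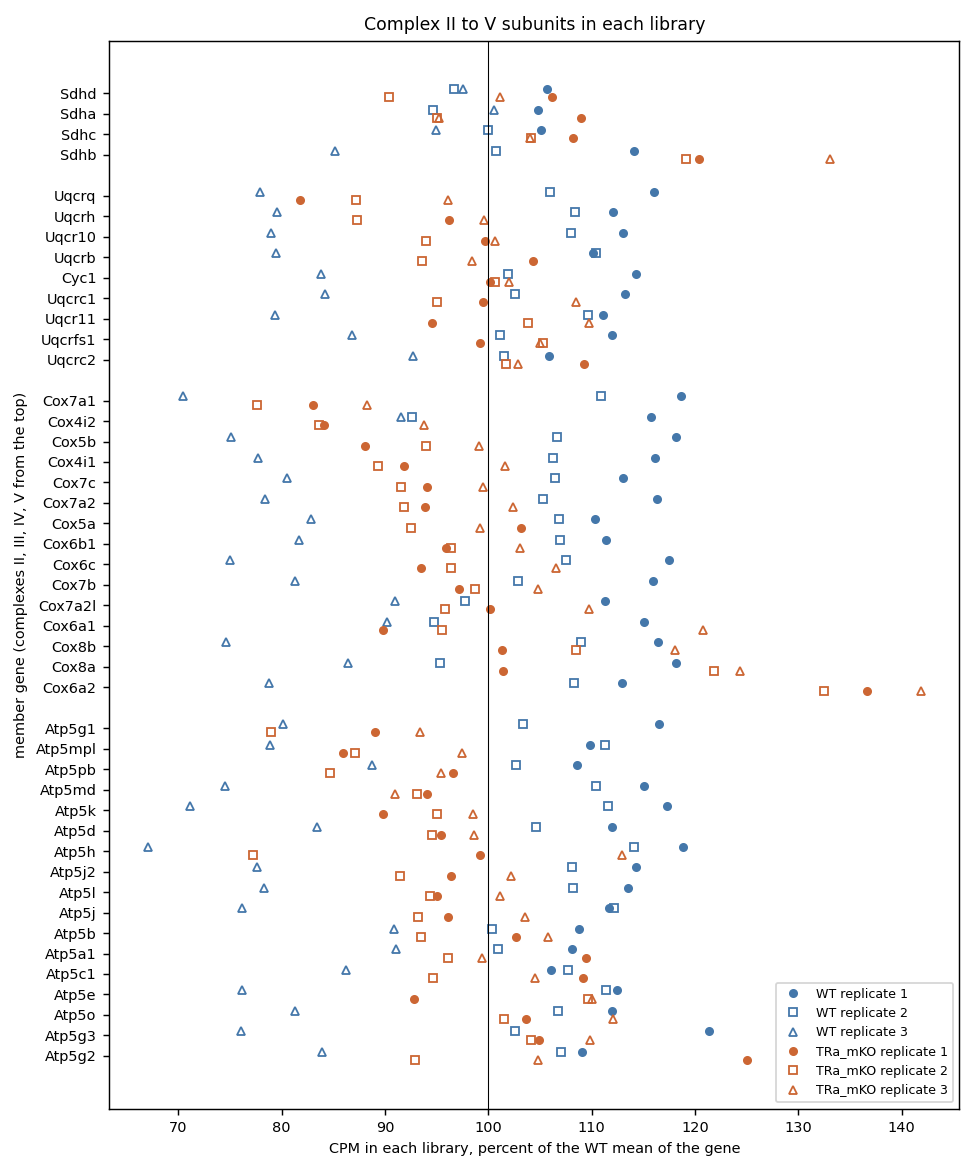
CPM of each subunit gene in each of the 6 libraries as a percentage of its WT mean, by complex, with blue symbols for WT and orange for TRa_mKO replicates. WT replicate 3 (open blue triangles) is the leftmost point in 39 of 45 genes, and all TRa_mKO points lie right of all WT points in Sdhb and Cox6a2.

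The plot of the genes by library shows WT replicates 1 and 3 at opposite ends in most members. The median log2 deviation from a gene's mean was 0.19 in WT replicate 1, 0.10 in WT replicate 2 and -0.29 in WT replicate 3, and -0.07 to 0.05 in the TRa_mKO libraries. Nuclear-encoded complex I subunits (Nduf genes) showed the same order, with WT replicate 3 lowest in 36 of 39 genes (92.3%), 0 called by edgeR, 0 by DESeq2 and 0 at an unadjusted p under 0.05. Among mitochondrial ribosomal proteins it was lowest in 49 of 75 genes (65.3%). Among fast-fibre markers WT replicate 3 was lowest in 6 of 8 genes, and among slow-fibre markers in 2 of 8.

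The signs of the members' fold changes depended on which libraries were kept, while edgeR called no member in any of these fits. Without WT replicate 3, 40 of 45 members were below 0 (median -0.14), 7 were lower and 1 higher at an unadjusted p under 0.05 (7.28% and 9.26% of all genes in that fit), and edgeR called 0 (2.34% of all genes), with the lowest adjusted p of 0.0515 in Cox7a1 (log2 fold change -0.47). Without WT replicate 1, 37 of 45 were above 0 (median 0.06), with 3 higher at an unadjusted p under 0.05 (8.39% of all genes in that fit) and 0 called (2.89%). With library size only in place of the trimmed mean, 10 of 45 were above 0 (median -0.06). Without TRa_mKO replicate 2, 25 of 45 were above 0 (median 0.01). The sign of the median thus changed with the libraries kept, and no direction is given for the list. Cox6a2 and Sdhb were above 0 in each of these fits.

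The deviations of the libraries were also set against transcript length. Over 12859 genes with a length, the deviation of WT replicate 3 had a Spearman rho with transcript length of 0.23 across genes, and over the 45 members 0.65. In the other 5 libraries rho across all genes lay between -0.15 and 0.06. Over the members it was -0.35 in WT replicate 1 and -0.48 in WT replicate 2. In TRa_mKO replicates 1, 2 and 3 it was 0.44, -0.13 and -0.19. Each deviation is taken from the gene's mean over the 6 libraries, so a drop in 1 library raises the deviations of the others. The rho values of the libraries therefore depend on each other and cannot tell in how many libraries length played a part. The points share libraries and genes are not independent replicates, so these are descriptions with no p. Among all genes with transcripts up to 600 nt, the median log2 ratio of WT replicate 3 to WT replicate 1 was -0.41 (122 genes), beside -0.52 in the 15 members of that class. Above 600 and up to 1200 nt it was -0.20 (935 genes) beside -0.51 (17 members), above 1200 and up to 2400 nt -0.04 (3322 genes) beside -0.30 (9 members), and above 2400 nt 0.04 (8474 genes) beside -0.20 (4 members). In each class the members' median lay below that of all genes of like length. The class above 2400 nt holds Atp5g1 by its longest transcript (4715 nt), and its shortest is 596 nt. The part of transcript length in the members' values was not tested further than by the fit corrected for GC content and length, in which 23 of 45 members were above 0, the median was 0.00 and 1 of 45, Cox6a2, was called, against 4.46% of all genes in that fit.

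**Figure D4:**
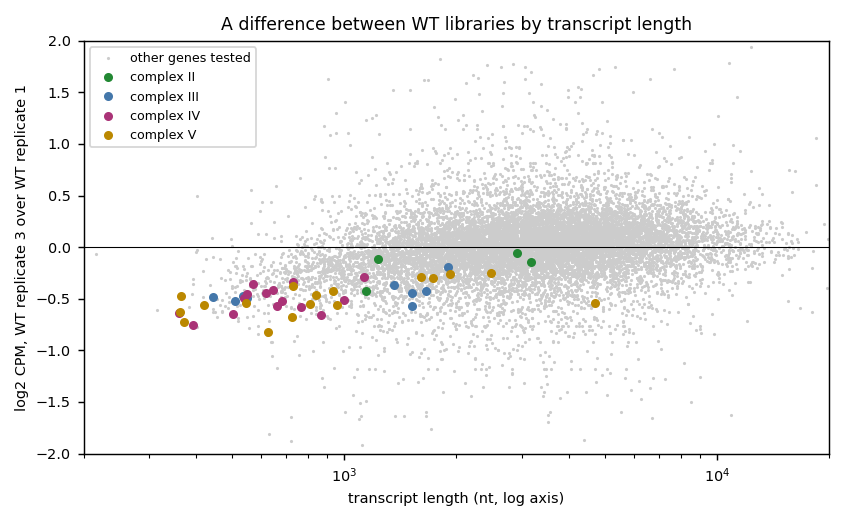
Log2 ratio of WT replicate 3 to WT replicate 1 against transcript length (log axis, nt), with grey points for the other genes tested (30 lie outside the axes) and coloured points for the subunit genes by complex. All members lie below 0, by -0.06 (Sdha) to -0.83 (Atp5h).

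The length plot shows this gene by gene. The largest drop among the members from WT replicate 1 to WT replicate 3 was in Atp5h (log2 ratio -0.83, 625 nt), followed by Cox7a1 (-0.75, 393 nt). The smallest was in Sdha (-0.06, 2900 nt).

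Promoter letters were counted on both strands in the same 250-base windows. AGGTCA occurred in 5 of the 34 members with a window (14.7%) and in 15.8% of all 27025 genes with one. TNAAGGTCA, the extended site of the oestrogen-related receptors, which contains AGGTCA, occurred in 1 of 34 (2.94%), Atp5g3, against 1.30%. CCGGAAG occurred in 9 of 34 (26.5%) against 7.83%, and GCGCATGC in 5 of 34 (14.7%) against 2.56%. Both are motifs of factors named for their binding to respiratory genes, and the counts are given without a test.

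Factors that build the complexes were read from lists of genes outside the rule. None of the 4 complex II, 6 complex III, 28 complex IV and 5 ATP synthase assembly factors tested was called by edgeR, DESeq2 or limma-voom, and their median log2 fold changes were -0.06, 0.01, -0.08 and -0.06. At an unadjusted edgeR p under 0.05 there were 0, 0, 4 and 1, beside 17.9% of all genes tested. Atpaf1, a chaperone of the beta subunit, was 56.9, 56.6 and 54.5 CPM (WT) and 50.5, 42.7 and 39.9 CPM (TRa_mKO). It was lower in every TRa_mKO library, as were 10.1% of all genes, and did not pass (log2 fold change -0.34, edgeR adjusted p = 0.0928). Among the complex IV factors, Cmc2 was 16.8, 19.2 and 15.1 CPM (WT) and 13.0, 12.6 and 13.8 CPM (TRa_mKO) (log2 fold change -0.37, edgeR adjusted p = 0.123) and Coa7 was 15.4, 16.2 and 15.4 CPM (WT) and 13.8, 12.8 and 12.5 CPM (TRa_mKO) (-0.27, adjusted p = 0.198). Higd1a was at -0.30 (edgeR adjusted p = 0.201). Higd2a, the 1 complex IV factor higher at an unadjusted p under 0.05, was 112, 112 and 96.3 CPM (WT) and 125, 121 and 125 CPM (TRa_mKO) (0.21, edgeR adjusted p = 0.278).

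Of 4 further genes whose products sit on or beside these complexes, 0 were called by edgeR, DESeq2 or limma-voom and 0 had an unadjusted p under 0.05. Cycs, the cytochrome c that shuttles electrons between complexes III and IV, was 1175, 1133 and 861 CPM (WT) and 1056, 862 and 909.7 CPM (TRa_mKO) (log2 fold change -0.16). Ndufa4, now assigned to complex IV, had a log2 fold change of -0.12, Atpif1, the inhibitor of ATP synthase, 0.16, and Dmac2l, a coupling factor of ATP synthase, 0.19.

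Among 16 transcription factors and coregulators of respiratory genes, edgeR called 2 higher and 0 lower, with a median log2 fold change of 0.00. Over all genes tested it called 2.52% higher and 1.65% lower. At an unadjusted edgeR p under 0.05, 5 of the 16 were higher and 2 lower, beside 17.9% of all genes in either direction. In every TRa_mKO library 5 were higher and 2 lower, beside 13.2% and 10.1% of all genes. Ppara, a receptor that drives fatty acid oxidation, was 11.1, 11.0 and 10.3 CPM (WT) and 19.2, 24.0 and 23.0 CPM (TRa_mKO) and rose (log2 fold change 1.03, adjusted p = 0.0013). Esrrb, an oestrogen-related receptor, was 4.57, 4.11 and 4.29 CPM (WT) and 6.88, 7.34 and 8.16 CPM (TRa_mKO) and rose (log2 fold change 0.79, adjusted p = 0.0189). Those with a closer tie to the subunits in textbook accounts did not pass: the coactivators Ppargc1a (-0.04) and Ppargc1b (0.49), the receptors Esrra (-0.11) and Esrrg (0.56), Nrf1 (-0.08), Gabpa (-0.02) and the mitochondrial factor Tfam (-0.01). Among these, Ppargc1b (edgeR unadjusted p = 0.0179, adjusted p = 0.165) and Esrrg (edgeR unadjusted p = 0.0211, adjusted p = 0.18) had an unadjusted p under 0.05. Ppargc1b was higher in every TRa_mKO library, as was Tfb1m (0.51, edgeR adjusted p = 0.0793), while Esrrg overlapped. Not all values of Ppargc1b and Tfb1m were whole, again taken as a sign of shared reads. Polrmt (-0.27, edgeR adjusted p = 0.11) and Ppard (-0.37, edgeR adjusted p = 0.151) were lower in every one.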

How the data were processed

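Polyadenylated RNA was sequenced as stranded paired-end libraries, per the labels' protocols. The table the authors deposited holds estimated counts, which the file headers call read counts, with no normalization. Between 9.65% and 10.0% of a library's values were not whole, and all values were rounded before testing. Trimmomatic 0.39, featureCounts, MultiQC 1.12 and FastQC 0.11.9 are listed in the submitters' processing notes. Not given in the sources used here were the aligner, the annotation, the strand setting and the build of the counts. No 2 libraries agreed within sampling noise (chi-square per degree of freedom 7.75 to 18.8 within a genotype).

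Genes were kept by filterByExpr (minimum count 10), scaled by the trimmed mean of M-values and tested with the two-sided robust quasi-likelihood test of edgeR 4.0.16 in R 4.3.3, with Benjamini-Hochberg adjustment over all 13118 genes and a threshold of 0.05. The step was tested on simulated data. The common biological coefficient of variation was 11.8%, and the median over the members was 12.8%. DESeq2 1.42.0 and limma-voom (limma 3.58.1) were alternatives, as were other scalings and filters, a GC and length correction and each library left out. Isoform ratios were compared by exact permutation of the 6 libraries. Transcript lengths are those of the longest RefSeq-matched GENCODE transcript of a gene, found for 98.0% of genes tested, and levels per kilobase use the shortest such transcript and leave out Atp5g1 and Atp5c1, whose transcripts differ in length. Promoters came from RefSeq (GRCm38.p6). The members and gene lists were chosen with earlier results of these data known. Members named are those with an unadjusted p under 0.05 or called by any tool, the tissue isoforms, the Sdh genes, Cyc1, Uqcrfs1, catalytic and ring subunits of ATP synthase, and the lowest and highest fold change of each complex. Others named were chosen after their values were seen. Marker lists not described in the text gave summed levels, WT against TRa_mKO, of 591 to 827 and 491 to 678 CPM for adipocytes, 0.396 to 1.50 and 1.45 to 1.61 CPM for brown adipocytes, 1079 to 1499 and 1072 to 1568 CPM for fibroblasts, 141 to 617 and 226 to 301 CPM for nerve and Schwann cells, 20.7 to 27.5 and 18.5 to 28.1 CPM for macrophages, and 13.3 to 14.2 and 18.0 to 20.0 CPM for satellite cells.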

Additional observations from a re-analysis of the deposited data

How the results depend on the processing

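The number of genes called over the whole table, 547, was 357 with the replicate block, 267 without the haemoglobin-rich libraries (WT replicate 1 and TRa_mKO replicate 3, an alternative chosen after seeing the data), 934 at a threshold of 0.1, and 209 to 595 with each library left out in turn, being 360 without WT replicate 2, 309 without WT replicate 3 and 209 without TRa_mKO replicate 2. With library size only, 213 were higher and 255 lower, against 331 and 216. The members gave 0 calls, except 1 (Cox6a2) under DESeq2 and 1 (Cox6a2) with the GC and length correction (5.82% and 4.46% of all genes in those fits), and 0 with each library left out. Over 719 results of single members under 16 alternatives, 717 kept their side of the threshold, and 34 uncalled members changed sign in at least 1 of them. The log2 difference of the Cox8b to Cox8a ratio, -0.068, ran from -0.17 to 0.036 with each library left out and turned to 0.036 without WT replicate 2. The cause was not tested. Libraries with the same replicate number did not deviate together (correlations of -0.18, 0.01 and -0.03). With 3 libraries per genotype, this cannot tell whether the replicate numbers pair the mice, and the main test did not pair them. With 3 libraries per genotype, the 95% interval of the fold change reached past 1.5-fold in Cox6a2, Cox7a1 and Sdhb, and the other 42 members could still differ by less than that.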
